A study of Mus musculus with 6 samples.

Results

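Voltage-gated sodium and calcium channel genes were examined in mouse primary oligodendrocyte precursor cells (mOPCs), the glial progenitors that give rise to myelinating oligodendrocytes (OLs). The group was taken by gene symbol, as the genes whose symbols begin with Scn followed by a number and a or b, or with Cacna, Cacnb or Cacng. It held 40 of the 23038 genes listed, 14 of sodium channels and 26 of calcium channels. Poly-A RNA was sequenced in 6 libraries, 3 from mOPCs transfected with control siRNA (siNC) and 3 from mOPCs transfected with siRNA against Qk (siQk). The study compared them to learn how the transcriptome depends on Qk, which encodes the RNA-binding proteins Qki5, Qki6 and Qki7. The mOPCs of both groups had been purified by immunopanning from mouse embryos of a single embryonic age, which the study states. They were collected 72 h after transfection in both groups, and no strain or genotype was stated. For Qk, 3 different siRNAs were used, and which siRNA went into which library was not stated. The labels call the libraries biological replicates without saying whether they came from separate animals, so that P-values measure the spread between these libraries.

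A voltage-gated sodium channel consists of a large alpha subunit, which forms the pore and senses voltage, and smaller beta subunits, which adjust gating and act in cell adhesion. A voltage-gated calcium channel is built around an alpha1 subunit, which sets the channel class (L-type, P/Q-type, N-type, R-type or T-type). Its auxiliary alpha2delta and beta subunits bring the pore to the cell surface. Of the Cacng family, a few proteins are muscle calcium channel gamma subunits, whereas the others are transmembrane AMPA receptor regulatory proteins (TARPs), which traffic and gate AMPA-type glutamate receptors. OPCs are known to carry voltage-gated sodium and calcium channels and to receive glutamatergic synapses from axons, and these currents decline as the cells become myelinating OLs.

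The level of Qk itself was 209, 206 and 163 RPKM in siNC 1, 2 and 3 and 51.3, 76.6 and 36.2 RPKM in siQk 1, 2 and 3. RPKM is the number of tags scaled by the exon length of the gene and by the tag total of the library, as the authors deposited it. The groups did not overlap, and the log2 fold change of Qk (siQk over siNC) was -1.98 ± 0.28 (standard error, n = 3 libraries per group, edgeR's quasi-likelihood test, FDR = 0.00311). Library totals ranged from 58166490 tags (siNC 1) to 141045937 (siQk 1), and siNC 1 also held the largest share of ribosomal Rn45s tags, 3.11% against 0.169 to 0.389% in the other 5 libraries. The OPC markers were present in every library, with Olig1 at 268 ± 11.2 RPKM in siNC and 402 ± 35.7 in siQk (SD, n = 3) and Olig2 at 132 ± 9.62 and 236 ± 14.0. Of the 10 OPC markers 3 were called higher and 1 lower, with a sum of 956 to 1000.5 RPKM in siNC and 1084 to 1293 in siQk. Markers of OLs were also abundant and moved with the groups: 8 of 14 were called lower and 0 higher in siQk, with Bcas1, not called, at 1041 ± 267 RPKM in siNC and 854 ± 59.7 in siQk, and their summed level was 4587 to 7558 RPKM in siNC and 2388 to 3329 in siQk. Beside these counts, 13.8% of the 12505 genes tested in all were called higher and 17.2% lower. A smaller number of cells of a type and less RNA per cell cannot be told apart in such bulk libraries.

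Of the 40 channel genes, 26 passed the filter on low counts, an average logCPM over 0, and could be tested. A member counts as called where its P was below 0.01 and its FDR below 0.1. A member given below with an FDR under 0.1 as not passing, or as losing its call, missed the limit on P. By this rule 3 members were higher in siQk, namely Scn1a, Cacna1g and Cacng8, and 4 were lower, among them Cacng5, Cacna1s and Scn8a. These 7 are 26.9% of the tested members, against 31.0% of the 12505 genes tested in all, where 13.8% were called higher and 17.2% lower. The share of changed transcripts among the channel genes was therefore near the background. The median log2 fold change was 0.12 over the 26 members (15 above 0 and 11 below) and 0.01 over all tested genes. The ranges of RPKM did not overlap between the groups for 13 of the 26 members, against 58.3% of all tested genes. Scaling by library size alone, without the TMM factors, moved the median of all genes to 0.16 and the split of member calls from 3 higher and 4 lower to 4 higher and 2 lower.

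**Figure D1:**
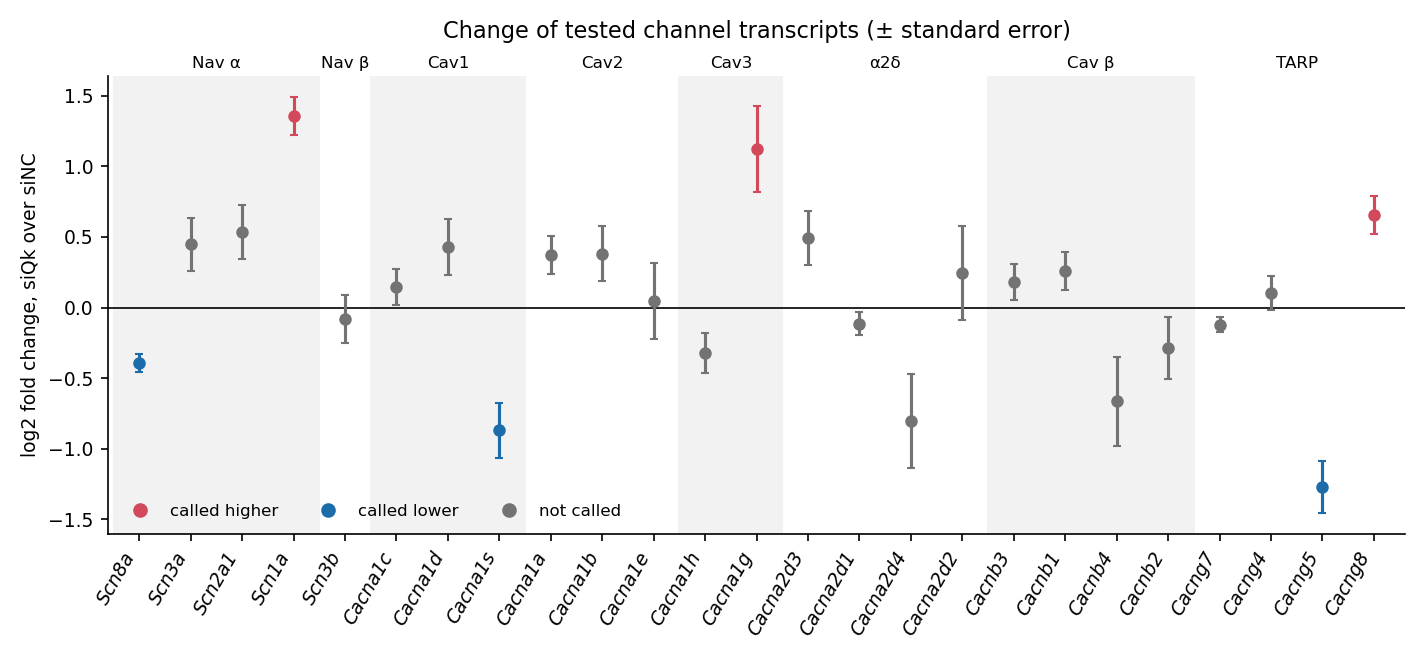
Log2 fold change (siQk over siNC, vertical axis) of 25 of the tested channel genes, ordered by subfamily along the horizontal axis; points are edgeR estimates and bars 1 standard error, with 3 libraries per group. The called transcripts drawn run from Cacng5 at -1.27 to Scn1a at 1.36, and called points stand on both sides of 0 among the Nav alpha subunits and the TARPs.

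The sodium channel alpha subunits that could be tested were Scn8a, Scn3a, Scn2a1 (now named Scn2a) and Scn1a. All 4 are known mainly from neurons. In siNC, Scn8a made up most of their summed level, and in siQk Scn8a was lower while Scn1a, the least abundant of the 4, was higher. Scn8a (Entrez gene 20273, GRCm38 chr15:100869858-101045938, plus strand), which encodes a channel of the axon initial segment and nodes of Ranvier, was at 5.27, 5.97 and 6.13 RPKM in siNC 1, 2 and 3 and at 4.65, 4.97 and 5.08 RPKM in siQk 1, 2 and 3. The highest siQk library lay just under the lowest siNC library, and the log2 fold change was -0.39 ± 0.06 (edgeR, FDR = 0.00491). This call depended on the scaling, since Scn8a was at -0.24 with FDR = 0.0515 in edgeR when library size alone was used. Scn1a (Entrez gene 20265, GRCm38 chr2:66270778-66440840, minus strand), whose loss of function causes the epilepsy Dravet syndrome, was at 0.206, 0.205 and 0.181 RPKM in siNC and at 0.544, 0.597 and 0.543 RPKM in siQk. The groups were far apart for their spread, 0.197 ± 0.014 RPKM in siNC against 0.562 ± 0.031 in siQk (SD, n = 3). The log2 fold change of Scn1a was 1.36 ± 0.14 (edgeR, FDR = 0.00117), or 2.56-fold after TMM scaling, from 130 to 259 tags per siNC library and 535 to 832 per siQk library.

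Scn3a, the sodium channel best known from the embryonic brain, was at 1.66, 2.89 and 2.90 RPKM in siNC and at 3.99, 3.51 and 3.70 RPKM in siQk. All siQk libraries were above all siNC libraries, but siNC 1 lay well under its group, and the log2 fold change of 0.45 ± 0.18 did not pass (edgeR, FDR = 0.0972). Scn2a1, the alpha subunit of early axons, was at 0.725, 1.27 and 1.03 RPKM in siNC and at 1.61, 1.86 and 1.40 RPKM in siQk. Its groups did not overlap either, and its log2 fold change of 0.54 ± 0.19 did not pass (edgeR, FDR = 0.0677). Without siNC 2, the value of Scn2a1 was 0.73 and passed (edgeR, FDR = 0.0253). Summed over the alpha subunits, the level was 9.57 ± 1.43 RPKM in siNC and 10.9 ± 0.0945 in siQk (SD, n = 3), and the groups overlapped once the RPKM were divided by the TMM factors.

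Because a share within a library does not depend on how libraries are scaled, the makeup of the alpha subunit pool was also described. Scn8a took 66.6, 57.2 and 59.2% of the summed alpha subunit RPKM in siNC 1, 2 and 3 and 42.6, 44.9 and 46.7% in siQk 1, 2 and 3. The share of Scn8a was thus lower in every siQk library than in any siNC library, and Scn8a still held the first place in all 6. A share also falls where the other genes of its pool rise. In deposited RPKM, Scn3a, Scn2a1 and Scn1a were each higher in every siQk library than in any siNC library. The smaller share is therefore not separate evidence for a lower level of Scn8a. The mean share of Scn3a was 25.5 ± 4.01% in siNC and 34.1 ± 2.38% in siQk, that of Scn2a1 10.4 ± 1.56% and 14.8 ± 1.96%, and that of Scn1a 2.11 ± 0.446% and 5.13 ± 0.236% (SD, n = 3). None of these 3 shares overlapped between the groups. The remaining 6 alpha subunit genes, among them Scn4a of skeletal muscle and Scn9a, Scn10a and Scn11a of sensory neurons, were too low to test, with at most 0.0751 RPKM and 94 tags in any library, both in Scn9a.

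**Figure D2:**
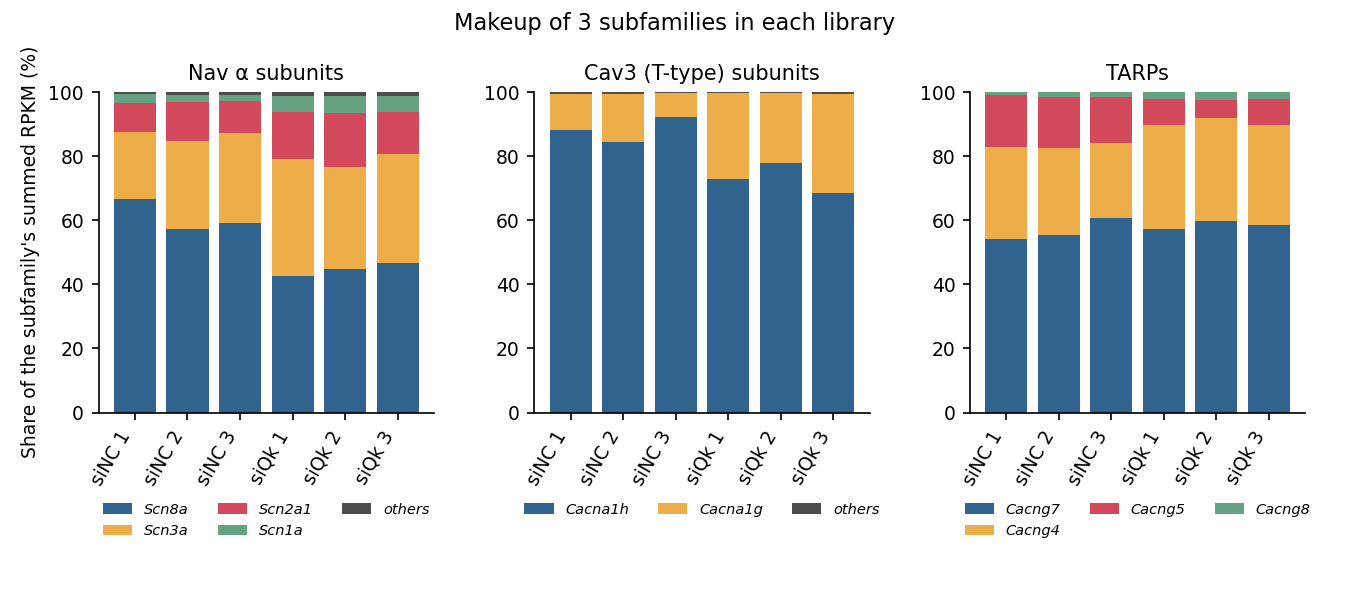
Share of each gene in the summed RPKM of its subfamily (vertical axis, percent) in each of the 3 siNC and 3 siQk libraries (horizontal axis), for the Nav alpha subunits, the T-type Cav3 subunits and the TARPs; genes with a mean share under 1% in both groups are drawn as others. Scn8a, Cacna1h and Cacng5 take smaller shares in every siQk library than in any siNC library. A share also falls where the other genes of its pool rise. The level of Cacna1h itself overlapped between the groups and was not called.

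Of the sodium channel beta subunits, which modulate gating, Scn3b was at 0.632, 0.521 and 0.496 RPKM in siNC 1, 2 and 3 and at 0.602, 0.580 and 0.552 RPKM in siQk 1, 2 and 3. The groups overlapped, and the log2 fold change of Scn3b was -0.08 ± 0.17 (edgeR, FDR = 0.727). Scn2b and Scn4b had at most 3 tags in any library.

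**Figure D3:**
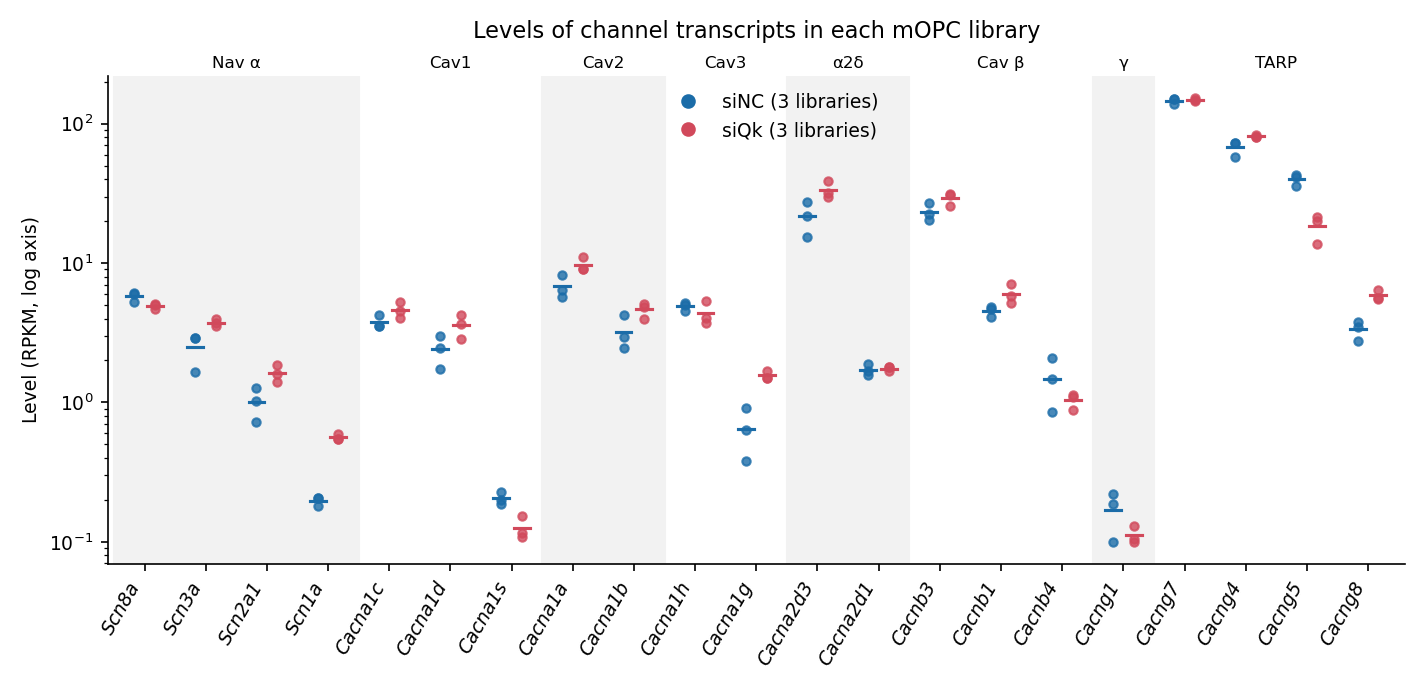
RPKM (log axis) in each library for 21 of the channel genes with a mean of at least 1 RPKM in a group, a call, or the highest level of their subfamily; points are single libraries of siNC (blue) and siQk (red) and short lines are group means, 3 libraries each. Cacng7 stands highest, at 139 to 153 RPKM over the 6 libraries, and the groups stand apart for Scn1a, Cacna1g and Cacng5.

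The calcium channel alpha1 subunits are known by their currents: Cacna1c, Cacna1d, Cacna1s and Cacna1f form L-type channels, Cacna1a P/Q-type, Cacna1b N-type, Cacna1e R-type, and Cacna1g, Cacna1h and Cacna1i T-type channels. Of these 10, 8 were tested, Cacna1g was higher and Cacna1s lower in siQk, and 6 were not called. Beside these calls, 13.8% of all tested genes were called higher and 17.2% lower. Among the T-type channels, which open near the resting potential, Cacna1h was the more abundant in all 6 libraries and Cacna1g rose. Cacna1g (Entrez gene 12291, GRCm38 chr11:94408391-94474198, minus strand) was at 0.637, 0.919 and 0.380 RPKM in siNC 1, 2 and 3 and at 1.49, 1.51 and 1.69 RPKM in siQk 1, 2 and 3. The siQk libraries lay close together and above all siNC libraries, which spread more than 2-fold among themselves. The log2 fold change of Cacna1g was 1.12 ± 0.30 (edgeR, FDR = 0.0279), or 2.18-fold after TMM scaling. The call was lost when siNC 1 or any 1 siQk library was left out, although the log2 fold change stayed between 1.06 and 1.16 in those fits, and it was also lost with the replicate number as a block (1.21, edgeR, FDR = 0.0519).

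Cacna1h was at 5.01, 5.18 and 4.55 RPKM in siNC and at 4.07, 5.33 and 3.73 RPKM in siQk. The groups overlapped, siQk 2 being the highest of the 6, and the log2 fold change of -0.32 ± 0.14 did not pass (edgeR, FDR = 0.114). Without siQk 2 it was -0.48 and passed (edgeR, FDR = 0.0334). In the T-type pool the share of Cacna1g was 11.2, 15.0 and 7.69% in siNC 1, 2 and 3 and 26.8, 22.0 and 31.0% in siQk 1, 2 and 3, without overlap. The summed T-type level was 5.58 ± 0.600 RPKM in siNC and 5.96 ± 0.777 in siQk (SD, n = 3), and these groups overlapped. Cacna1i reached at most 0.0336 RPKM.

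Among the L-type channels, the neuronal and cardiac Cacna1c and Cacna1d were the abundant members and neither was called. Cacna1c was at 3.51, 4.26 and 3.52 RPKM in siNC and 4.51, 4.06 and 5.26 RPKM in siQk (log2 fold change 0.14 ± 0.13, edgeR, FDR = 0.406). Cacna1d was at 1.74, 2.48 and 2.98 RPKM in siNC and 2.84, 4.22 and 3.65 RPKM in siQk (log2 fold change 0.43 ± 0.20, edgeR, FDR = 0.129). Both overlapped between the groups. Cacna1s (Entrez gene 12292, GRCm38 chr1:136052750-136119822, plus strand), the channel of skeletal muscle excitation-contraction coupling, was at 0.188, 0.201 and 0.228 RPKM in siNC and at 0.115, 0.154 and 0.108 RPKM in siQk. All siQk libraries were lower than all siNC libraries, and the log2 fold change was -0.87 ± 0.20 (edgeR, FDR = 0.0156). Cacna1s rested on 68 to 187 tags per library. An exon of the antisense gene Gm37759 overlaps it, which the unstranded library kit cannot separate. Exons of opposite-strand genes likewise overlap other members, among them Cacna1a, Cacna1d, Cacna1h, Cacnb1, Cacnb4 and Scn9a. The call of Cacna1s was lost with library size alone (-0.72), with the replicate block (-0.87, edgeR, FDR = 0.0557), without siQk 1 (-0.81) and without siQk 3 (-0.78). Cacna1s was under the filter without siNC 2 or siNC 3. Striated muscle markers were scarce in these libraries: their sum over 10 genes was 0.735 to 1.10 RPKM in siNC and 0.483 to 0.558 in siQk, Des and Myod1 were at 0, Myh8 was called lower, and their part in the Cacna1s result was not tested.

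The P/Q-type Cacna1a, a presynaptic channel in neurons, was the most abundant alpha1 subunit, at 5.74, 8.18 and 6.46 RPKM in siNC 1, 2 and 3 and 9.14, 9.11 and 10.97 RPKM in siQk 1, 2 and 3. The groups did not overlap, and the log2 fold change of 0.37 ± 0.14 did not pass (edgeR, FDR = 0.0699). It passed without siNC 2 (0.51, edgeR, FDR = 0.0173) and with library size alone (0.52, edgeR, FDR = 0.0223). The N-type Cacna1b was at 2.47, 4.25 and 2.96 RPKM in siNC and 4.86, 3.99 and 5.12 RPKM in siQk, with overlap and a log2 fold change of 0.38 ± 0.20 (edgeR, FDR = 0.162), and without siNC 2 it was 0.62 and passed (edgeR, FDR = 0.0194). Unlike in the T-type and sodium channel pools, the shares of the P/Q-, N- and R-type genes overlapped between the groups: Cacna1a took 66.5 ± 1.89% in siNC and 66.4 ± 1.99% in siQk and Cacna1b 31.2 ± 2.11% and 31.8 ± 2.22% (SD, n = 3). Summed over all 10 alpha1 genes, the level was 22.2 ± 3.21 RPKM in siNC and 28.9 ± 1.85 in siQk, without overlap as deposited but with overlap after division by the TMM factors.

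None of the 8 auxiliary alpha2delta and beta subunit genes, all of them tested, was called by edgeR's quasi-likelihood, exact or likelihood ratio test or by DESeq2 (0 in each), and 2 had an unadjusted P under 0.05, Cacna2d3 and Cacna2d4. By the quasi-likelihood test 31.0% of the 12505 genes tested in all were called, and the difference from these 8 genes was not tested. Cacna2d3 was the most abundant alpha2delta subunit, with 15.4, 27.4 and 21.9 RPKM in siNC 1, 2 and 3 and 38.9, 29.7 and 32.0 RPKM in siQk 1, 2 and 3. All siQk libraries were above the siNC libraries as deposited, but the groups overlapped after TMM scaling, and the log2 fold change of 0.49 ± 0.19 did not pass (edgeR, FDR = 0.0842). Without siNC 2 it was 0.69 and passed (edgeR, FDR = 0.0247). Cacna2d1, the target of gabapentin, was at 1.57 to 1.88 RPKM in siNC and 1.68 to 1.79 RPKM in siQk (log2 fold change -0.11 ± 0.08, edgeR, FDR = 0.323). Cacna2d4 had a log2 fold change of -0.80 ± 0.33 (edgeR, FDR = 0.0993), the largest in size among members that were not called. Cacnb3 made up 78.8 ± 0.773% of the summed beta subunit RPKM in siNC and 80.1 ± 1.39% in siQk, at 22.4, 26.7 and 20.4 RPKM in siNC and 30.5, 25.8 and 31.2 RPKM in siQk (log2 fold change 0.18 ± 0.13, edgeR, FDR = 0.305). Cacnb1, the beta subunit of skeletal muscle that is also made in brain, was at 4.08 to 4.86 RPKM in siNC and 5.20 to 7.04 RPKM in siQk (log2 fold change 0.26 ± 0.13, edgeR, FDR = 0.169). Cacnb4 was at 1.48, 2.10 and 0.857 RPKM in siNC and 0.879, 1.10 and 1.14 RPKM in siQk, the siNC libraries spreading widely, with a log2 fold change of -0.66 ± 0.32 (edgeR, FDR = 0.138). Without siNC 3, the lowest library, Cacnb4 was at -0.96 and passed (edgeR, FDR = 0.0113).

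The TARPs had the highest summed level of the subfamilies, most of it from Cacng7 and Cacng4, and within them Cacng5 was lower and Cacng8 higher in siQk. Their sum was 257 ± 11.1 RPKM in siNC and 254 ± 5.97 in siQk (SD, n = 3), overlapping as deposited but lower in every siQk library after division by the TMM factors. Cacng5 (Entrez gene 140723, GRCm38 chr11:107874605-107915055, minus strand), a type II TARP, was at 41.3, 43.0 and 36.0 RPKM in siNC 1, 2 and 3 and at 20.2, 13.7 and 21.5 RPKM in siQk 1, 2 and 3. Every siQk library was well under every siNC library, and siQk 2 was the lowest. The log2 fold change of Cacng5 was -1.27 ± 0.19 (edgeR, FDR = 0.00369), and it was called under all 18 alternative settings, between -1.40 and -1.09. Cacng8 (Entrez gene 81905, GRCm38 chr7:3390683-3415648, plus strand), a type I TARP best known from the hippocampus, was at 2.74, 3.80 and 3.51 RPKM in siNC and at 5.62, 6.40 and 5.56 RPKM in siQk. The siQk libraries were all above the siNC libraries, with a log2 fold change of 0.66 ± 0.13 (edgeR, FDR = 0.0106). The annotation places the small RNA gene Gm23450 within an exon of Cacng8 on the same strand.

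Cacng7, the other type II TARP, was the most abundant of the 40 genes, at 139, 149 and 150 RPKM in siNC and 145, 148 and 153 RPKM in siQk. Its RPKM overlapped as deposited but not after TMM scaling, where siQk was lower, and its log2 fold change was -0.12 ± 0.05 (edgeR, FDR = 0.116). Cacng4, a type I TARP of glia and of the developing brain, was at 72.7, 72.9 and 57.5 RPKM in siNC and at 82.4, 80.2 and 80.6 RPKM in siQk. These ranges did not overlap as deposited but did so after TMM scaling, and the log2 fold change of 0.10 ± 0.12 did not pass (edgeR, FDR = 0.519). The exon length listed for Cacng4, 984 bases, equals that of a coding sequence of the gene, so that its level per length rests on a gene model without untranslated regions. For Cacng7 the listed 939 bases are fewer than its longest annotated 3′ untranslated region alone, 1273 bases. The level and rank of Cacng7 thus also rest on a gene model that leaves out untranslated sequence. The type II TARPs thus differed from each other: of the TARP sum, Cacng5 took 15.6 ± 0.876% in siNC and 7.25 ± 1.5% in siQk, without overlap, and Cacng7 56.8 ± 3.41% and 58.5 ± 1.2%, with overlap. The shares of Cacng8 were 1.30 ± 0.199% and 2.31 ± 0.231%. Cacng2 (stargazin) and Cacng3, the TARPs of cerebellar and cortical neurons, had at most 8 tags in any library. The muscle gamma subunits Cacng1 and Cacng6 were likewise too low to test, with Cacng1 at 0.1 to 0.22 RPKM in siNC and 0.1 to 0.131 in siQk.

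QKI proteins bind RNA at a short element whose core, in the letters of the reference, is ACTAAC or ACTAAT, and this core was searched for on the transcript strand of the 3′ untranslated region (3′ UTR) in GENCODE M21 models. Among the called members it was found in 2 of 7, Scn8a with 3 matches and Cacng5 with 2, both lower in siQk. They are shown with their surroundings because these are the only called channel transcripts with the letters, each 5′ to 3′ with the core in capitals.
Scn8a, chr15:101041205-101041234, plus strand: tcagcctatgtcACTAATcgtctgtttctt
Scn8a, chr15:101041805-101041834, plus strand: aaaaagaaaaatACTAATagaaaaaagagt
Scn8a, chr15:101042936-101042965, plus strand: taaatacaaattACTAACttattaaatagg
Cacng5, chr11:107875598-107875627, minus strand: agctagtttgagACTAACctgggctgcatg
Cacng5, chr11:107875578-107875607, minus strand: gggctgcatgcgACTAACctgggctacgtg

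The surroundings of the 2 Cacng5 cores overlap. The 3′ UTR of Scn8a is 5250 bases long and that of Cacng5 2747 bases, and among genes with a 3′ UTR of about the same length (within 10%) 78.4% and 59.4% hold the core, and 29.8% and 28.3% hold at least as many. Of the 19 tested members that were not called, 14 held it, and of the 14 untested members 2 did, against 32.6% of the 20674 genes with a 3′ UTR. That 32.6% is not matched for length, so it cannot show enrichment or depletion. For the members not called, the share among genes of like length ran from 10.4% (Cacna2d3, 322 bases) to 95.6% (Cacna1e, 7662 bases). A match describes the letters and not binding, and no difference between called and other members was tested.

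Genes listed as partners of these channels were also examined. Of 21 tested genes of sodium channel binding and clustering, 3 were higher and 2 lower in siQk. Those higher were Calm2, a calmodulin gene (222 ± 19.8 to 355 ± 25.0 RPKM, log2 fold change 0.53), Fgf12, a homologous factor that binds the alpha subunit tail (2.82 ± 0.418 to 4.98 ± 0.481 RPKM, 0.67), and Spnb4, also named Sptbn4, the spectrin of axon initial segments (0.132 ± 0.00222 to 0.287 ± 0.0302 RPKM, 0.97). Those lower were Ank2, an ankyrin (67.5 ± 9.86 to 47.8 ± 0.881 RPKM, -0.64), and Spnb2, also named Sptbn1, its spectrin partner (83.8 ± 1.39 to 57.2 ± 2.51 RPKM, -0.70). Of 17 tested genes of the calcium channel list, 4 were higher and 2 lower. Higher were Rimbp2, a presynaptic scaffold (log2 fold change 1.30), Cabp1, a neuronal calcium sensor (0.91), Akap5, an anchor of protein kinase A (0.54), and Cacybp, a calcyclin-binding protein (0.33), and lower were Sorcs1, a sorting receptor (-0.48), and 2700078E11Rik, now named Cacul1, a cullin-domain gene (-0.44). Cacybp and Cacul1 are not known as partners of voltage-gated calcium channels, although the list holds them. The calls of these lists, 23.8% and 35.3% of tested genes, stand beside the 31.0% of all genes.

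For the TARPs, the partners are the AMPA receptor subunits and their other auxiliary proteins. Of 8 tested genes, Gria3 and Cnih2 were higher and Gria1 and Cnih3 lower in siQk. The receptor subunit Gria1 showed the largest difference, from 6.92 ± 2.10 RPKM in siNC to 1.22 ± 0.126 in siQk (SD, n = 3, log2 fold change -2.65, edgeR, FDR = 0.000895). Gria3 went from 5.69 ± 1.38 to 9.37 ± 0.726 RPKM (log2 fold change 0.57). Of the cornichons, which escort AMPA receptors to the surface, Cnih2 went from 6.74 ± 0.0384 to 9.78 ± 0.909 RPKM (0.39) and Cnih3 from 2.42 ± 0.981 to 1.22 ± 0.195 RPKM (-1.14). Within the TARPs, the cornichons and the receptor subunits alike, calls in both directions thus occurred, in 2 of 4 tested TARPs and 4 of these 8 tested partners, against 31.0% of all genes.

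Since several of these channels are made by neurons and astrocytes as well, the markers of other cell types are given beside them. For comparison with the marker counts, 13.8% of all tested genes were called higher and 17.2% lower. Of 11 tested neuron markers, Snap25 (log2 fold change 2.64) and Nefl (1.61) were called higher and Gad2 (-2.19) lower in siQk. As deposited, 7 of the 11 were higher in every siQk library than in any siNC library (6 after TMM scaling). Among them were Dcx (9.69 ± 4.0 to 18.7 ± 1.91 RPKM), Elavl4 (7.53 ± 2.41 to 12.7 ± 1.33), Nefm (2.31 ± 1.02 to 4.68 ± 0.139) and Syt1 (1.55 ± 0.731 to 3.14 ± 0.362), which were not called. In either direction, deposited ranges did not overlap for 8 of the 11, against 58.3% of all tested genes. The sum over the 14 neuron markers, most of it from Tubb3 and Elavl3, was 154 to 233 RPKM in siNC and 143 to 185 in siQk, which overlapped, and Slc17a6, a marker of glutamatergic neurons, was at 0 and Stmn2 at or under 0.0439 RPKM in every library. Of 8 tested astrocyte markers, 4 were lower and 0 higher, namely Gfap (69.1 ± 27.9 to 9.85 ± 1.26 RPKM, log2 fold change -2.95), Aldh1l1 (-2.21), Slc1a3 (-1.38) and Slc1a2 (-1.06). The sum over the 10 markers, most of it from S100b and Aldoc, which were not called, was 293 to 413 RPKM in siNC and 288 to 311 in siQk, while Gja1 was at or under 0.0130 RPKM. Of the 10 microglia markers only P2ry12 was tested, and it was lower, with a sum of 0.734 to 3.32 RPKM in siNC and 0.337 to 0.427 in siQk and C1qa and C1qb at 0. Of the 10 fibroblast and vascular markers only Kdr and Tagln were tested, with log2 fold changes of 0.06 and -0.10 that did not pass, and sums of 3.68 to 6.41 RPKM in siNC and 5.13 to 6.40 in siQk and Cldn5 at 0. The part of the OL, neuron, astrocyte and microglia markers in the channel results was not tested.

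**Figure D4:**
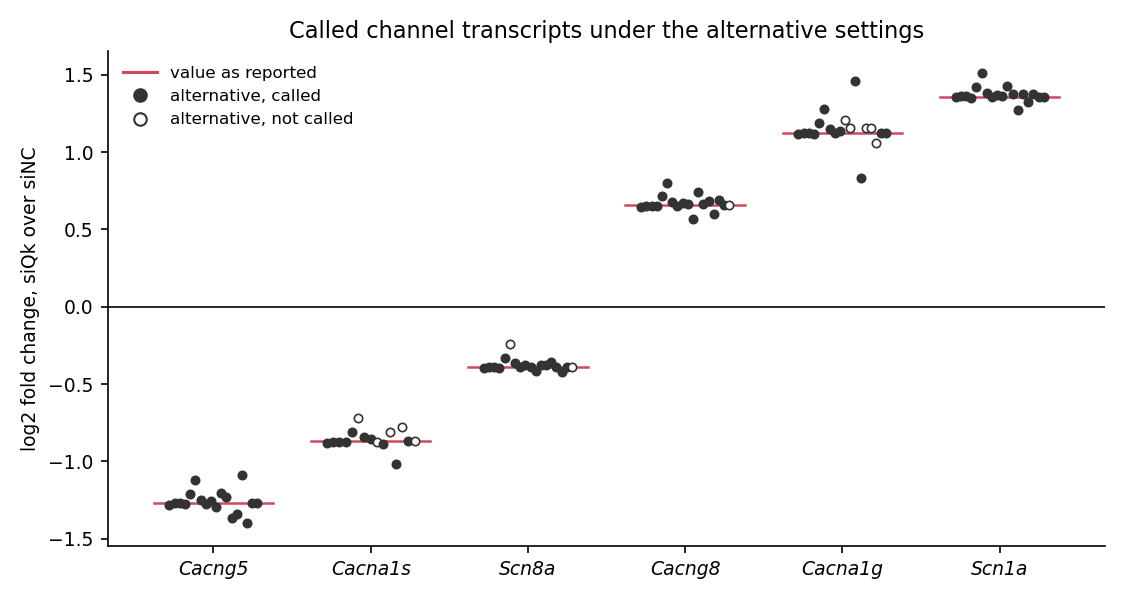
Log2 fold change (siQk over siNC, vertical axis) of 6 of the called channel genes under each alternative setting (points, filled where the gene was called and open where not) and as reported (line). Every gene drawn keeps its sign in all settings that could be fitted, Scn1a and Cacng5 are called in all of them, and Cacna1g and Cacna1s have the most open points.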

How the data were processed

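Poly-A mRNA libraries of mOPCs (TruSeq v2, which does not keep strand) were sequenced as 75-nt paired ends. The authors used OLego for alignment to mm10 and Quantas for gene levels, with versions and gene annotation not given in the sources used here. For each library they deposited an estimated count of tags per gene, which is an expected count and was not whole in some library for 15 of the 40 members, and the RPKM value made from it and the exon length. It was not stated if a tag stands for 1 read or a pair, and the symbols are as in the files.

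Expected counts were rounded. Genes with average logCPM over 0 (12505) were fitted in edgeR 4.0.16 by its quasi-likelihood test with TMM factors (R 4.3.3, limma 3.58.1), group as the only term, and adjusted by Benjamini-Hochberg over all of them. A standard error is the size of the log2 fold change over the square root of F. No pair of libraries of the same group agreed within sampling noise, so none was taken as a repeat sequencing of another, and each counted as 1 replicate. That check cannot show whether the libraries came from separate cultures. With 3 against 3, the exact two-sided permutation test on RPKM, which gave P = 0.1 for Qk, cannot go lower. The fit was tested on simulated data in which few genes changed, evenly up and down, with a common dispersion. That check cannot show how normalization behaves where 31.0% of tested genes are called. Genes were named by a rule: Qk, called members, members with a mean of at least 1 RPKM in a group, the highest of each subfamily, and the called partners with the most extreme changes. Scn3b, Cacna2d4, Cacna1e, other neuron and astrocyte markers and the untested genes named fall outside it and were chosen after their values were seen. A few genes within the rule are not reported here. Members and lists were chosen with earlier results of these data known. Positions and 3′ UTRs were read from GENCODE M21, whose assembly GRCm38 is that of mm10, and 5 list genes with older symbols were matched by Entrez identifier. Alternatives were the likelihood ratio and exact tests of edgeR, DESeq2 1.42.0, other normalizations, filters and cutoffs, a replicate block and each library left out. Splicing was not analysed.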

Additional observations from a re-analysis of the deposited data

How the results depend on the processing

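Against 7 channel genes called, library size alone gave 6 (4 higher, with Cacna1a added, and 2 lower, without Cacna1s and Scn8a), a filter at logCPM over 1 gave 5 of 22 tested (3 higher and 2 lower), and FDR below 0.05 joined to a log2 change of 1 or more in size gave 4 (2 higher and 2 lower). Leaving out 1 library gave 5 to 10 called, 2 to 7 higher and 3 to 5 lower; the 10 and the 7 came without siNC 2, where Cacna2d3, Cacna1a, Cacna1b and Scn2a1 passed as well. Cacna2d1 and Cacng7 turned to 0.0372 and 0.0284 on the log2 scale with library size alone, and Cacng4 ran from -0.0233 (without siNC 3) to 0.20 (without siNC 1) when 1 library was left out, none of them called in any setting. Replicate numbers were not taken as pairs, since deviations of same-numbered libraries correlated at -0.05, -0.15 and -0.34, and with the replicate block 5 members were called (2 higher and 3 lower) and 2796 of all genes against 3879. DESeq2, edgeR's exact and likelihood ratio tests, RLE and upper quartile factors, no filter and filterByExpr each gave 7. Of the fits of single genes, 351 kept their direction and side of the threshold, 13 lost the call, 7 gained one and 3 changed sign. Qk was called in 18 of 18, between -2.29 and -1.76. Dividing RPKM by the TMM factors moved 5 group levels by more than their SD. The causes were not tested. At this depth the 14 untested members give no statement about their change.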

Other observations

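Beyond the channels, genes that carry or remove the calcium signal were examined from a list of 26, of which 24 were tested and 6 were higher and 4 lower in siQk (41.7%, against 31.0% of all genes). Among the called genes, the highest log2 fold changes were those of the plasma membrane calcium pump Atp2b2, from 0.342 ± 0.0965 RPKM in siNC to 1.2 ± 0.105 in siQk (1.67), of the calcineurin-regulated factor Nfatc2, from 0.101 ± 0.0328 to 0.292 ± 0.0337 RPKM (1.38), and of the pump Atp2b4, from 1.26 ± 0.282 to 2.91 ± 0.248 RPKM (1.07; SD, n = 3). The lowest among the called genes were those of the kinase Camk4, from 1.76 ± 0.786 to 0.430 ± 0.0471 RPKM (-2.17), of Stim1, the sensor of store-operated calcium entry, from 11.9 ± 0.864 to 9.70 ± 0.683 RPKM (-0.45), and of the calcineurin subunit Ppp3cc (-0.36). Of 6 tested genes of other cation channels and their subunits, Unc79, a subunit of the sodium leak channel complex, was higher (5.87 ± 0.278 to 13.8 ± 1.26 RPKM, log2 fold change 1.09), and the sperm channel gene Catsper2 lower (2.48 ± 0.164 to 1.59 ± 0.101 RPKM, -0.79).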
